A study of Rattus norvegicus with 250 samples.

Results

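Genes of the glutamatergic synapse, 5 in all, were followed through the hippocampal RNA-Seq libraries of F2 rats, whose grandparents came from lines bred for high (bHR, bred High Responder) or low (bLR, bred Low Responder) exploratory activity. The 5 genes were set as a list of rows rather than picked by their values, but earlier results of these data were known when the list was made. All 5 were among the 32883 genes of the count table and the 19448 genes that were tested. They are ENSRNOG00000011726 (Grin1), ENSRNOG00000008766 (Grin2b), ENSRNOG00000045816 (Gria1), ENSRNOG00000018712 (Camk2a) and ENSRNOG00000018526 (Dlg4). The symbols are those assigned to the rows when the list was drawn up, and no table used here pairs these identifiers with symbols, so each symbol below stands for its identifier.

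The series holds 250 libraries of polyA RNA, 1 per rat, of which 245 had no failed quality control label and were used (122 males, 123 females). The rats came from 12 families and were between 113 and 132 days old. All were bHR x bLR intercross animals, all were tested for locomotor activity and on the elevated plus maze (EPM), and 208 of the 245 had also been through Pavlovian Conditioned Approach (PavCA) training, in which a lever signals food, while 37 had not. Punches of dorsal and ventral hippocampus were pooled within each rat, from the left side in 123 rats and the right in 122. Rats of a family are related, so the rats are not fully independent and p-values measure the spread between these animals. The total count of a library lay between 17.9 M (mega counts) and 31.5 M (median 21.6 M), and no pair of libraries held identical counts.

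Glutamate carries most fast excitation in the hippocampus. AMPA receptors open first, and NMDA receptors let calcium in when the postsynaptic cell is already depolarized. That calcium activates the kinase CaMKII, which together with scaffold proteins of the postsynaptic density adjusts how many AMPA receptors sit in the synapse, a well known route to synaptic plasticity. Grin1 encodes the subunit shared by all NMDA receptors, Grin2b one of the glutamate-binding NMDA receptor subunits, Gria1 an AMPA receptor subunit, Camk2a the alpha subunit of CaMKII and Dlg4 a scaffold protein that anchors these receptors.

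Promoter windows of RefSeq (build GRCr8, from 250 bases before to 50 after the gene start) were found under the symbols of 3 of the 5 genes, Grin1, Camk2a and Dlg4. They are shown as a description, and whether they bear on the levels of the genes was not tested. Short motifs and G and C content are the sequence features compared. Each line gives 30 bases, 5′ to 3′ on the strand of the gene, with the motif in capitals.
Grin1, short form of the cAMP response element, chr3:28528909-28528938, minus strand: acctgcacatggTGACGagaaacccctgta
Grin1, GC box, chr3:28528708-28528737, minus strand: gtcaggaagcggGGGCGGtgggaggggtag
Camk2a, short form of the cAMP response element, chr18:56649018-56649047, plus strand: ggacctggatgcTGACGaaggctcgcgagg
Dlg4, CCAAT box, chr10:55239779-55239808, plus strand: aggaacaaaactCCAATgaagtcagagccc
The short form TGACG, read on both strands, was in the Grin1 and Camk2a windows and in 21.2% of all 33469 promoter windows. Besides the sites shown, it lay on the other strand at -10 and 16 bases from the gene start in Grin1 and at -92 in Camk2a. The GC box GGGCGG was in the Grin1 window and in 33.1% of all windows. The CCAAT box was in the Dlg4 window and in 37.5% of all. The full element TGACGTCA, which contains the short form, and the TATA box TATAAA were in none of the 3 windows and were in 1.83% and 14.2% of all windows. No motif was shared by the 3 windows. Their G and C content was 59.7% for Grin1, 61.3% for Camk2a and 68.7% for Dlg4, against a median of 51.7% over all windows.

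Levels are in CPM (counts per 1 M counts in the library) after scaling of the library totals. No gene length was used, so levels are compared between rats and not between genes. Grin1 ranged from 115 to 660 CPM over the 245 rats, with a median of 364. Grin2b ranged from 15.3 to 98.8 CPM with a median of 43.3. Gria1 ranged from 154 to 670 CPM with a median of 402. These 3 receptor subunit genes thus spanned 5.74-fold, 6.46-fold and 4.34-fold between the lowest and the highest rat. Camk2a ranged from 386 to 2350 CPM with a median of 1080, a 6.09-fold span. Dlg4 ranged from 316 to 1040 CPM with a median of 569 and had the narrowest span of the 5, 3.28-fold. On the log2 scale the SD between rats was 0.54 for Grin1, 0.57 for Grin2b, 0.44 for Gria1, 0.62 for Camk2a and 0.39 for Dlg4, and the median SD over 13749 genes with at least 1 CPM was 0.38. The 5 libraries that failed quality control lay inside these ranges, with Grin1 between 211 and 501 CPM.

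The first comparison was among the genes themselves. All 10 pairs were positively correlated over the 245 rats as measured, with a median Pearson r of 0.93. Gria1 and Camk2a had the highest value (r = 0.967, Spearman's rho = 0.973) and Gria1 and Grin2b the lowest (r = 0.780, rho = 0.805). Each of the 10 values had a permutation p of 1e-05, the smallest that 100000 resamples can give, and each stayed at an adjusted p of 1e-05 over the 30 relations computed (10 pairs as measured, 10 after covariates, and each gene with each of 2 composition measures). Without the 2 rats farthest from the median of the first gene, the 10 values lay between 0.768 and 0.967. Within sexes and sequencing batches they lay between 0.629 and 0.971, and the lowest of these, Grin2b with Camk2a, was in batch 3. Over all pairs of the 13749 genes the median r was 0.01. Against the 13748 other genes, the 95th percentile of measured r was 0.958 for Grin1, 0.862 for Grin2b, 0.920 for Gria1, 0.933 for Camk2a and 0.933 for Dlg4. All pairs with Grin2b, and Grin1 with Camk2a, lay below the percentiles of both their genes. Pairs among Gria1, Camk2a and Dlg4 lay above both, and the other pairs of Grin1 lay between. All values share the same libraries, and in bulk tissue fewer cells of a type and less RNA per cell cannot be told apart.

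Library covariates accounted for most of the variance of each gene. The covariates of the study's model without a behavior (sex, the percentages of ribosomal RNA and intergenic reads, dissector, PavCA experience and sequencing batch) accounted for 91.6% of the variance of Grin1, 68.3% of Grin2b, 81.4% of Gria1, 78.9% of Camk2a and 87.7% of Dlg4, beside a median of 70.6% over all 13749 genes. After removal of these covariates the pairs were still positively correlated, with a median r of 0.62 (median over all gene pairs -0.001). Set against the 13748 other genes, the 95th percentile of residual r was 0.72 for Grin1, 0.66 for Grin2b, 0.65 for Gria1, 0.74 for Camk2a and 0.58 for Dlg4. Gria1, Camk2a and Dlg4 were the closest group. Gria1 with Camk2a had r = 0.845 and rho = 0.836, Gria1 with Dlg4 had r = 0.799 and rho = 0.801, and Camk2a with Dlg4 had r = 0.777 and rho = 0.754. Pairs of Grin1 with these 3 genes lay between 0.617 and 0.640. Grin2b stood farthest from the scaffold gene Dlg4 (r = 0.423, rho = 0.417) and had r = 0.521 with Grin1, r = 0.569 with Gria1 and r = 0.589 with Camk2a. All 10 had a permutation p of 1e-05 (adjusted p 1e-05), and without the 2 most distant rats they lay between 0.415 and 0.834. Within sexes and batches the residual values ranged from 0.321 (Grin1 with Grin2b in batch 2) to 0.869 (Gria1 with Camk2a in batch 1). With family and dissection day added to the covariates the 10 values lay between 0.356 and 0.841.

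**Figure D1:**
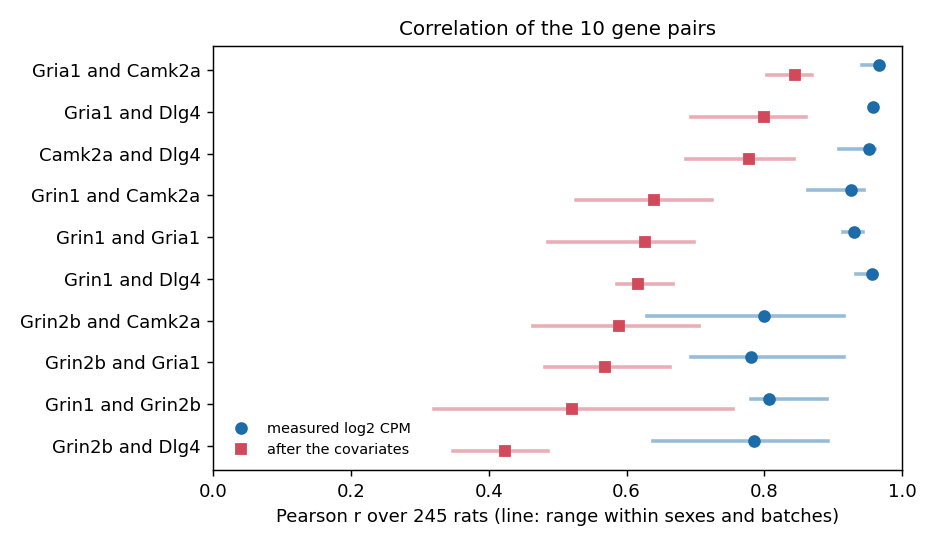
Pearson correlation over 245 rats for each of the 10 gene pairs, as measured (circles) and after removal of the covariates (squares), with lines for the range within males, females and the 3 sequencing batches. Measured values lie between 0.780 and 0.967, and after the covariates the 3 pairs among Gria1, Camk2a and Dlg4 remain the highest, at 0.777 to 0.845.

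Each gene was also set against the 13748 other genes with at least 1 CPM, and the genes with the highest residual r, up to 3 for each, were named. For Grin1 these included Sez6l2 (r = 0.934) and ENSRNOG00000018977 (r = 0.922). For Camk2a they were ENSRNOG00000011550 (r = 0.931), ENSRNOG00000005446 (r = 0.920) and ENSRNOG00000000105 (r = 0.913). For Grin2b they were ENSRNOG00000024907 (r = 0.891), ENSRNOG00000002863 (r = 0.868) and ENSRNOG00000005726 (r = 0.865). For Gria1 they were ENSRNOG00000002722 (r = 0.869), ENSRNOG00000034007 (r = 0.867) and ENSRNOG00000009899 (r = 0.858). For Dlg4 they were ENSRNOG00000025589 (r = 0.812), Gria1 itself (r = 0.799) and ENSRNOG00000002722 (r = 0.795), so that ENSRNOG00000002722 was on the lists of both Gria1 and Dlg4. Identifiers without a symbol were not paired with one in the sources used.

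The second comparison was with RNA composition, which the study measured in each library as the percentages of reads from ribosomal RNA and from intergenic sequence. The intergenic percentage ran from 9.91 to 17.3 with a median of 13.3. In the tertile of rats with the least intergenic reads (9.91 to 12.3%, n = 82) Grin1 ranged from 115 to 376 CPM with a median of 233, and in the tertile with the most (14.3 to 17.3%, n = 82) it ranged from 381 to 660 CPM with a median of 532. The 2 outer tertiles did not overlap for Grin1, nor for Dlg4, which ranged from 316 to 559 CPM in the first and from 627 to 1040 CPM in the last. The share of all genes whose outer tertiles separate was not counted. Camk2a overlapped slightly, with medians of 686 and 1640 CPM and ranges of 386 to 1180 and 1020 to 2350. Gria1 had medians of 295 and 537 CPM, with ranges of 154 to 419 and 384 to 670. Grin2b overlapped most, from 15.3 to 75.0 CPM (median 28.0) in the first tertile and from 33.5 to 98.8 CPM (median 60.5) in the last.

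In the limma-voom model all 5 genes rose with the intergenic percentage, where 77.3% of the 19448 genes tested passed the FDR of 0.10 in either direction and 38.9% passed and rose. The log2 difference per percentage point was 0.23 for Grin1 (SE 0.010, adjusted p = 1.2e-58), 0.27 for Grin2b (SE 0.021, adjusted p = 2.9e-28), 0.14 for Gria1 (SE 0.012, adjusted p = 7.7e-23), 0.21 for Camk2a (SE 0.019, adjusted p = 1.0e-23) and 0.17 for Dlg4 (SE 0.0089, adjusted p = 2.5e-47), each n = 245. Grin2b had the steepest fitted slope, a rise of 20.3% per point, and Gria1 the shallowest, 9.92% per point. The median slope was 0.21 over the 5 genes and -0.00064 over all genes tested. All 5 also passed and rose within males, within females and within each of the 3 sequencing batches. Measured levels and the intergenic percentage had r between 0.771 (Grin2b, rho = 0.769) and 0.936 (Grin1, rho = 0.947), permutation p = 1e-05 for each. Without the 2 rats farthest from the median percentage these r lay between 0.766 and 0.938, and within sexes and batches the lowest was 0.589, for Grin2b in batch 3. Over 13749 genes with at least 1 CPM the median r with the percentage was 0.24. The median of the absolute r was 0.80, above the 0.771 of Grin2b, so strong relations in either direction were common.

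**Figure D2:**
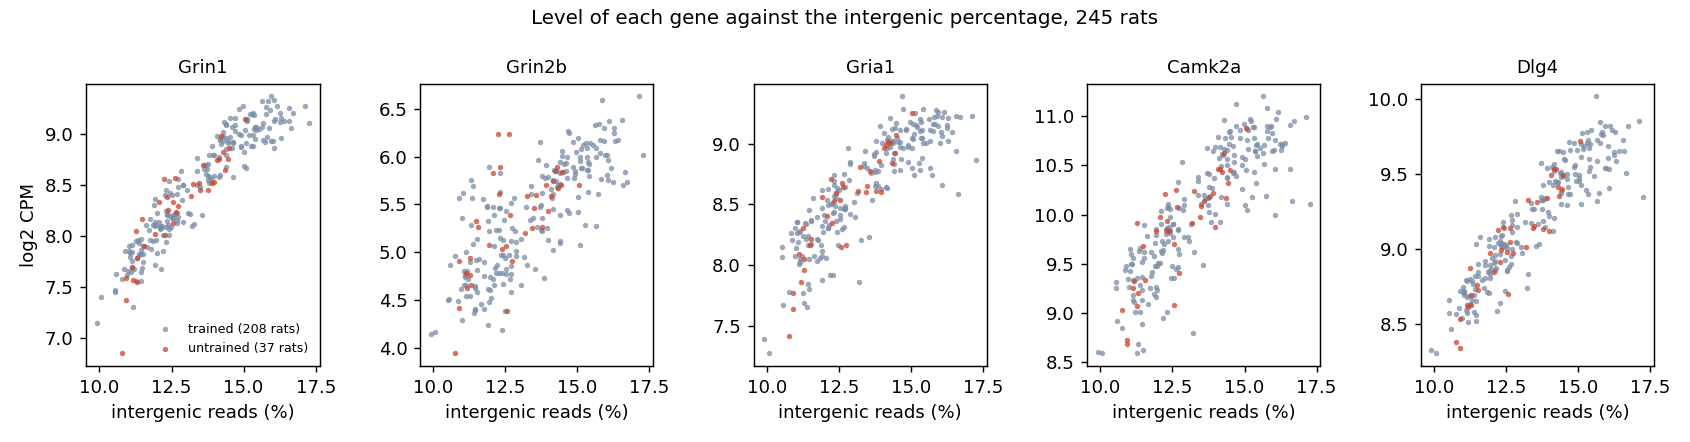
Log2 CPM of each gene (vertical axis) against the percentage of intergenic reads (horizontal axis) in 245 rats, with trained rats in grey and untrained rats in red. All 5 genes rise with the percentage, Grin1 with the highest r (0.936) and Grin2b with the widest scatter (r = 0.771).

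All 5 genes fell with the ribosomal RNA percentage in the same model, which ran from 0.48 to 2.88. The background was 68.8% of genes in either direction and 36% that fell. The log2 difference per percentage point was -0.43 for Camk2a (SE 0.078, adjusted p = 2.3e-07), -0.38 for Gria1 (SE 0.051, adjusted p = 1.6e-11), -0.36 for Grin1 (SE 0.043, adjusted p = 3.1e-14), -0.20 for Dlg4 (SE 0.037, adjusted p = 3.5e-07) and -0.19 for Grin2b (SE 0.090, adjusted p = 0.052). Grin2b was the least certain of these. It was not called in 6 of 15 alternatives, among them males alone (0.15, adjusted p = 0.42) and edgeR's quasi-likelihood test (-0.12, adjusted p = 0.22). In batch 3 alone only Grin1 and Gria1 passed. Measured levels had r with ribosomal RNA between -0.842 (Grin1, rho = -0.876) and -0.565 (Grin2b, rho = -0.617), permutation p = 1e-05 for each. Without the 2 most distant rats r lay between -0.841 and -0.549, and within sexes and batches between -0.922 and -0.461.

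Other genes of the pathway were compared with composition in the same model. A list of 33 symbols was drawn up and 17 could be paired with an identifier. With the intergenic percentage 17 of 17 passed and rose, where 38.9% of all genes tested did, with a median slope of 0.18. The steepest were Shank1, a scaffold of the postsynaptic density (0.36, SE 0.025), Grik5, a kainate receptor subunit (0.31, SE 0.014), and Grin2d, an NMDA receptor subunit (0.30, SE 0.020). The shallowest were Homer1, a scaffold that binds metabotropic receptors (0.045, SE 0.012), and Homer2 (0.061, SE 0.016). With ribosomal RNA 13 of 17 passed and fell, where 36% of all genes tested did. Shank1 (-0.15), Homer2 (0.11), Nlgn1 (-0.058) and the vesicular transporter gene Slc17a6 (-0.088) did not pass.

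Cell type markers moved as well. Of 18 marker symbols 8 were paired, and all 8 passed with the intergenic percentage, 4 up and 4 down, beside 77.3% of all genes tested in either direction. The 2 neuronal markers went opposite ways, Rbfox3 up (0.24, SE 0.0099) and Stmn2 down (-0.12, SE 0.0085). The interneuron marker Vip fell (-0.25, SE 0.019), as did Folr1, a choroid plexus marker (-0.54, SE 0.082). Of the astrocyte markers Gfap (0.053, SE 0.012) and Aqp4 (0.11, SE 0.011) rose and Slc1a3 fell (-0.12, SE 0.010), and the oligodendrocyte marker Mag rose (0.054, SE 0.020). The summed level of the 8 markers ranged from 3190 to 4410 CPM in the tertile of rats with the least intergenic reads and from 2790 to 3720 CPM in the tertile with the most. No marker was at 0 in any rat, and no microglial marker was paired. The part of cell type makeup in the composition result was not tested.

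The third comparison was between rats with and without PavCA training. Gria1 was lower in trained rats once the covariates were taken into account, by -0.11 on the log2 scale (SE 0.043, 95% interval -0.20 to -0.029, adjusted p = 0.099), and was the 1 gene of the 5 that passed. The background was 9.19% of genes tested in either direction and 3.85% lower. As measured, Gria1 ranged from 154 to 670 CPM in the 208 trained rats (median 415) and from 170 to 611 CPM in the 37 untrained rats (median 388), so the 2 groups overlapped and the measured medians had the opposite order. With sex as the only covariate the Gria1 estimate was 0.15 (adjusted p = 0.16). Camk2a had an estimate of -0.14 (SE 0.066, unadjusted p = 0.033, adjusted p = 0.21), with measured medians of 1100 CPM in trained and 981 CPM in untrained rats. Grin2b had an estimate of 0.13 (SE 0.074, adjusted p = 0.33) and medians of 43.8 and 41.8 CPM. Dlg4 (-0.036, SE 0.031) and Grin1 (0.0029, SE 0.036) had adjusted p of 0.58 and 0.98. The interval for Grin1 ran from -0.068 to 0.074.

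Trained and untrained rats differed in more than training. The intergenic percentage had a median of 13.5 in trained and 12.6 in untrained rats, and 30 of the 37 untrained rats were in sequencing batch 3. Dissection days 11 and 14 held 30 of the 37 untrained rats, and day 14 held 18 untrained rats and 1 trained rat. Families 11 and 12 held 23 of them. Untrained males were 113 to 118 days old and trained males 118 to 123. Untrained females were 124 to 130 days old and trained females 125 to 132. The Gria1 call was kept in 5 of 19 alternatives. It was not kept with dissection day added (-0.045, adjusted p = 0.70), with family added (-0.10, adjusted p = 0.17, where Grin2b was the 1 gene of the 5 that passed, at 0.22, adjusted p = 0.052) or without dissection day 14 (-0.084, adjusted p = 0.39). The summed level of the 8 cell type markers ranged from 2790 to 4410 CPM in trained and from 3010 to 3820 CPM in untrained rats. Of the 8 markers 0 passed the training test, beside 9.19% of all genes tested, and 1, Stmn2, had an unadjusted p of 0.035.

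Trained and untrained rats shared a date of death on 3 of the 9 dates, 1 of males and 2 of females. The 3 untrained males had Grin2b between 56.6 and 75.4 CPM and the 6 trained males between 20.5 and 30.2 CPM. For Camk2a the untrained males lay between 1000 and 1210 CPM and the trained between 386 and 975 CPM. For Gria1 they lay between 338 and 419 CPM and between 203 and 402 CPM. Untrained males of that date were thus higher for Grin2b and Camk2a with no overlap, and overlapped for Gria1. The share of all genes that separate these males in the same way was not counted. For Grin1 (322 to 379 CPM) and Dlg4 (461 to 559 CPM) the untrained males lay inside the ranges of the trained males, 188 to 381 and 353 to 566 CPM. The overlap for Grin1, Dlg4 and Gria1 came from a single trained male with 13.85% intergenic reads, at log2 CPM of 8.57, 9.15 and 8.65. The next highest trained male had 7.86, 8.73 and 8.23, below the lowest untrained male at 8.33, 8.85 and 8.40. Both of these trained males were in sequencing batch 2. The other trained males and the untrained males of that date were in batch 3. The median intergenic percentage was 12.2 in the untrained and 11.3 in the trained males. All 6 trained males of that date were from family 1 and all 3 untrained males from family 12, so training and family cannot be told apart there. After adjustment for composition, sex, dissector and batch, trained minus untrained on that date was -1.12 for Grin2b, -1.08 for Camk2a, -0.60 for Gria1, -0.60 for Grin1 and -0.26 for Dlg4.

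On the first female date (48 trained, 9 untrained) the adjusted differences were 0.17 for Grin2b, 0.065 for Camk2a and 0.024 for Gria1. On the second (54 trained, 3 untrained, the latter from 1 family) they were -0.32 for Grin2b, 0.020 for Camk2a and 0.057 for Gria1. For Gria1 and Camk2a the female-date differences were small beside the SD between rats after the covariates, 0.19 and 0.29. No direction is read from them. Among these 3 dates, lower adjusted Gria1 and Camk2a in trained rats were thus seen on the male date only. Of the 9 families with both kinds of rats, adjusted Gria1 was lower in trained rats in 4 and higher in 5. For Camk2a it was lower in 5 and higher in 4. Restricted to these 3 dates, with date in place of sex, the Gria1 estimate was -0.071 (adjusted p = 0.55) and 0 of the 5 genes passed. In a fit added after the data were seen, leaving the 9 males of the shared date out of the full model took the Gria1 estimate to -0.075 (adjusted p = 0.32), the Camk2a estimate to -0.056 (adjusted p = 0.67) and the Grin2b estimate to 0.23 (adjusted p = 0.036). In that fit 2029 of the 19464 genes tested passed. Among males alone Camk2a had an estimate of -0.57 (adjusted p = 0.0019), and without the shared date -0.33 (adjusted p = 0.54). Gria1 among males without the shared date had an estimate of -0.21 (adjusted p = 0.57).

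**Figure D3:**
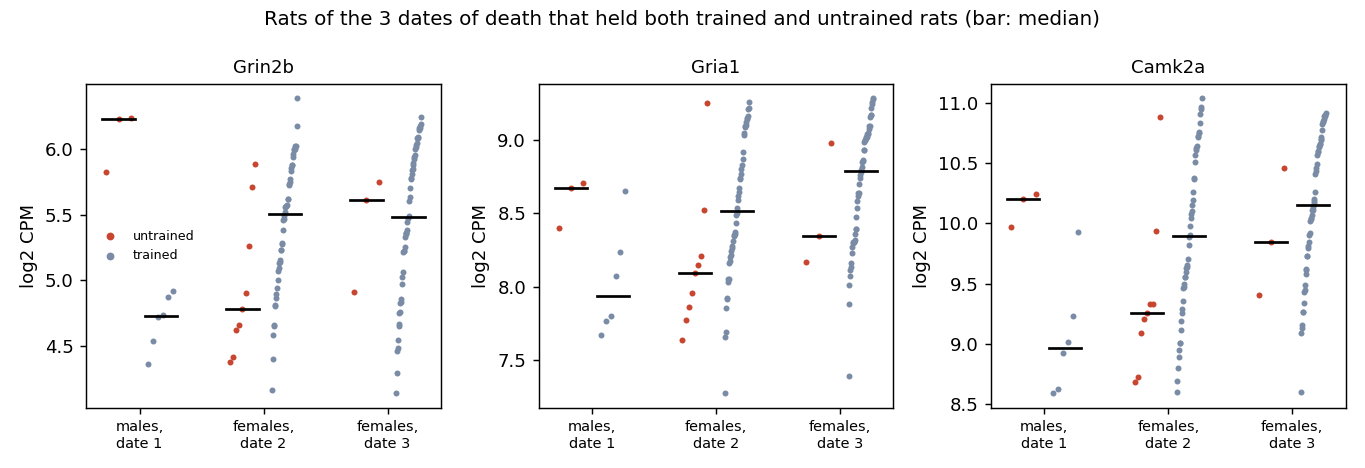
Log2 CPM (vertical axes) of Grin2b, Gria1 and Camk2a on the 3 dates of death that held both untrained (red) and trained (grey) rats, 1 point per rat, with bars for the medians and rats sorted by level within each column. On the male date the untrained median is higher for all 3 genes, and on the first female date the untrained median is lower for all 3.

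Among the 17 paired genes of the pathway 4 passed the training test, where 9.19% of all genes did. Cnih2, an auxiliary subunit of AMPA receptors (ENSRNOG00000020247), was lower in trained rats by -0.20 (SE 0.041, adjusted p = 0.00071), and Slc17a7, the main vesicular glutamate transporter of hippocampal and cortical excitatory neurons (ENSRNOG00000020650), by -0.16 (SE 0.037, adjusted p = 0.0034). Grin2d (ENSRNOG00000021063) was higher by 0.21 (SE 0.077, adjusted p = 0.083) and Slc17a6, a vesicular glutamate transporter typical of subcortical neurons (ENSRNOG00000016147), by 0.43 (SE 0.13, adjusted p = 0.030). The other 13 did not pass, among them the AMPA receptor auxiliary subunits Cacng3 (-0.11, adjusted p = 0.12) and Cacng8 (-0.088, adjusted p = 0.17). The median estimate was -0.033 over the 17 genes and 0.0063 over all genes tested.

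The fourth comparison was between the 12 families. In a moderated F test with family added to the model, 4 of the 5 genes passed, beside 56.3% of all genes tested. These were Camk2a (adjusted p = 0.0015), Grin1 (adjusted p = 0.0016), Grin2b (adjusted p = 0.0023) and Gria1 (adjusted p = 0.063), and Dlg4 had an adjusted p of 0.17. Family 1 (17 rats) had the lowest fitted level for each of the 5 genes, from -0.24 for Camk2a and -0.23 for Grin2b to -0.091 for Gria1 relative to the mean of the families. Family 12 (13 rats, 4 of them trained) was highest for Grin2b (0.33), Grin1 (0.16) and Gria1 (0.079). Camk2a was highest in family 7 (0.15) and Dlg4 in family 8 (0.057). In 7 of the 12 families all 5 genes deviated to the same side. The 9 males of the date of death shared by trained and untrained males belong to families 1 and 12, so they enter both the training and the family comparison. Without them, in a fit added after the data were seen, 3 genes passed (Camk2a, adjusted p = 0.020, Grin1, 0.037, and Grin2b, 0.072), and Gria1 had an adjusted p of 0.13. In that fit 9650 of the 19464 genes tested passed. Family 1 was then lowest for 4 genes and family 3 for Gria1, and family 12 was highest for none of the 5, at 0.14 for Grin2b, 0.052 for Grin1 and -0.017 for Gria1. The widest spread between families was that of Grin2b, 0.56, followed by Camk2a, 0.39, and Grin1, 0.27.

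Measured levels placed the families differently. Family 12 had a median of 266 CPM for Grin1, with a range of 165 to 379, and its median intergenic percentage of 11.7 was the lowest of the 12. Family 2 had the highest median, 519 CPM with a range of 191 to 660, and the highest median intergenic percentage, 14.5. Family 1 had a median of 350 CPM with a range of 188 to 562 and an intergenic median of 13.2. The ranges of any 2 of these families overlapped for Grin1. For Grin2b family 12 ranged from 21.2 to 75.4 CPM with a median of 39.9 and family 1 from 20.5 to 64.4 CPM with a median of 37.3. With intronic and UTR fractions and RNA concentration added to the model, only Grin1 and Grin2b still passed the family test. The share of all genes that passed in that fit is not given here. Among the 17 pathway genes 10 passed the family test, beside 56.3% of all genes tested. Among those that passed was Grik5 (adjusted p = 0.00021), and Cnih2 had an adjusted p of 0.91.

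**Figure D4:**
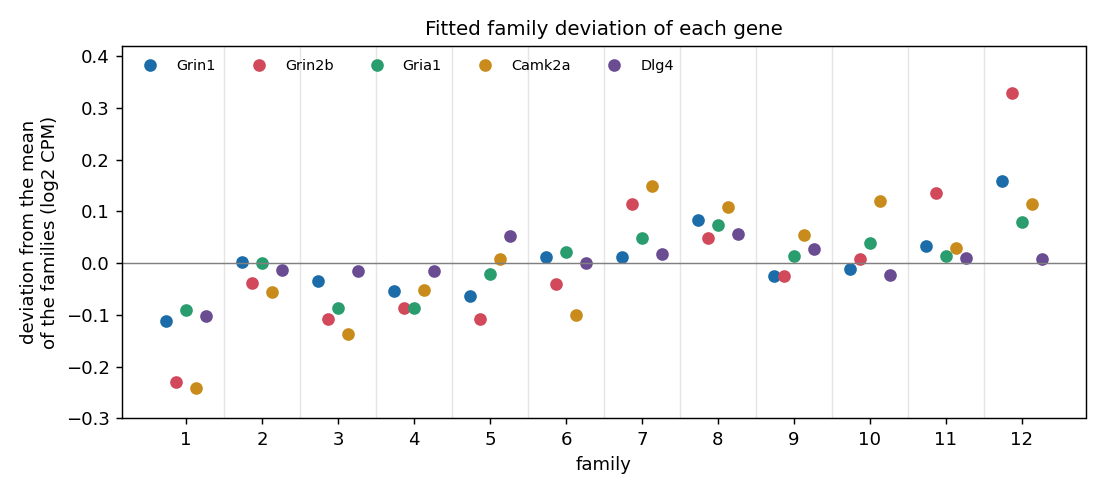
Fitted deviation of each family from the mean of the 12 families (vertical axis, log2 CPM) for the 5 genes, after the covariates of the model. Family 1, which with family 12 holds the 9 males of the shared date, is lowest for all 5 genes, and Grin2b in family 12 is the highest point at 0.33.

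Sex and hippocampal side were compared in the same model. Females had lower Grin1 by -0.055 (SE 0.021, adjusted p = 0.09996), just inside the FDR of 0.10, beside 9.08% of genes called in either direction and 5.04% lower. Grin1 ranged from 115 to 660 CPM in females (median 357) and from 175 to 645 CPM in males (median 370), so the sexes overlapped almost entirely. Without the intergenic term the estimate was 0.041 (adjusted p = 0.45). Camk2a (-0.070, adjusted p = 0.30), Gria1 (-0.046, adjusted p = 0.31), Dlg4 (-0.033, adjusted p = 0.32) and Grin2b (0.0023, adjusted p = 0.99) did not pass. Males and females died on different dates and at ages that did not overlap, 113 to 123 days in males and 124 to 132 days in females. Sex, date and age thus cannot be told apart. Of the 17 pathway genes 4 passed, where 9.08% of all genes did, 3 of them lower and 1 higher in females, among them Cacng8 (-0.086) and Slc17a7 (-0.084), which were lower, and Slc17a6 (0.28), which was higher. Of the 8 markers 4 passed, with Rbfox3 (-0.10), Gfap (-0.15) and Aqp4 (-0.12) lower and Vip (0.11) higher. The summed level of the 8 markers ranged from 2790 to 4410 CPM in females and from 3010 to 4060 CPM in males, and their part in the Grin1 result was not tested. Between the right and left sides limma-voom called 0 of the 5 genes and 0% of all genes, and 0 of the 5 had an unadjusted p under 0.05. The widest side estimate was that of Grin2b, -0.063 (95% interval -0.14 to 0.018).

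**Figure D5:**
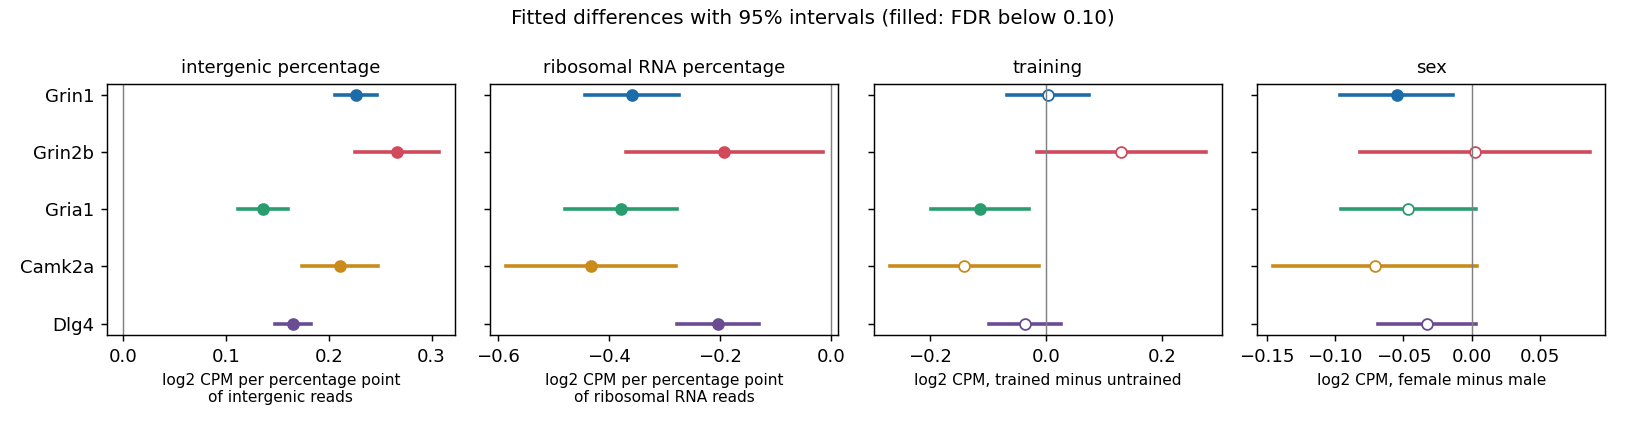
Fitted log2 differences of the 5 genes with 95% intervals (horizontal axes) for intergenic percentage, ribosomal RNA percentage, training and sex, from 1 model in 245 rats, filled where the FDR was below 0.10. All 5 are filled for both composition measures, and 1 each for training (Gria1, -0.11) and sex (Grin1, -0.055).

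The last comparison was with behavior, the main interest of the study, with 1 behavior in the model at a time. limma-voom called 0 of the 5 genes for any of the 5 behaviors, and 0 of the 25 tests had an unadjusted p under 0.05. edgeR's quasi-likelihood test also called 0 for each behavior. The background was 0.0103% of genes called for LocoScore, 0% for EPM distance, 0% for EPM time immobile, 0% for the EPM open arms and 0.00514% for the PavCA Index. LocoScore, which counts beam breaks in a box the rat did not know, ran from 40.0 to 1460 with a median of 475. Per 100 beam breaks the estimates were 0.0063 for Gria1 (95% interval -0.0019 to 0.014), 0.0053 for Camk2a (-0.0070 to 0.018), 0.0040 for Dlg4 (-0.0019 to 0.0099), 0.0013 for Grin1 (-0.0055 to 0.0081) and -0.00080 for Grin2b (-0.015 to 0.013), with unadjusted p between 0.13 and 0.91.

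On the EPM the time immobile ran from 40.7 to 179 s, and all 5 estimates were below 0. The smallest unadjusted p was that of Gria1, -0.010 per 10 s (95% interval -0.021 to 0.00074, p = 0.068, adjusted p = 0.99). Per 100 cm of distance (1100 to 3320 cm, n = 244) the intervals of the 5 genes lay between -0.012 and 0.010. Per 10 percentage points of time in the open arms (0 to 45.0%) they lay between -0.038 and 0.047. The PavCA Index, negative for goal-tracking and positive for sign-tracking, ran from -0.904 to 0.909 in 205 rats, and the intervals lay between -0.075 and 0.11 per unit. Grouped by the PavCA class of the labels, Camk2a had a median of 1200 CPM in 38 goal-trackers, 1100 CPM in 87 intermediate rats and 1010 CPM in 80 sign-trackers. The ranges of the 3 classes, 394 to 1980, 386 to 2350 and 387 to 2170 CPM, overlapped almost entirely. For Grin2b the medians were 43.9, 41.7 and 44.8 CPM. In the pathway list 0 of 17 genes passed for each behavior.

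Differences between the sexes in these relations were tested as interactions of sex with each behavior, with training and with the intergenic percentage. Of the 35 tests on the 5 genes 0 passed the FDR, with a lowest adjusted p of 0.25, and 6 had an unadjusted p under 0.05. The share of all genes under that unadjusted p was not counted, and tests on correlated genes are not separate. The shares of all genes that passed were 0.329% for LocoScore, 0% for EPM distance, 0.00514% for EPM time immobile, 0% for the open arms, 0% for the PavCA Index, 0.293% for training and 0.0154% for the intergenic percentage. For training the estimate of the interaction was 0.26 for Camk2a (SE 0.11, p = 0.016) and 0.16 for Gria1 (SE 0.070, p = 0.021). For the intergenic percentage it was -0.065 for Grin2b (SE 0.025, p = 0.0088). Per 10 s of time immobile it was -0.024 for Grin1 (SE 0.0096, p = 0.011, adjusted p = 0.25) and -0.038 for Camk2a (SE 0.017, p = 0.032), and per 100 cm of EPM distance 0.011 for Grin1 (SE 0.0048, p = 0.026).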

How the data were processed

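Hippocampal polyA RNA was sequenced from F2 rats. The authors aligned reads to Rnor6 with STAR (2.7.3a) and counted reads per gene of Ensembl release 103 with Subread (2.0.0), strand-specifically, and deposited raw counts without normalization or filtering. The 5 libraries with a failed quality control label were left out. Genes with at least 1 read in 25% of the 245 rats were kept, scaled by TMM and tested with limma-voom (limma 3.58.1, edgeR 4.0.16, R 4.3.3) with the covariates of the study's model, two-sided, with Benjamini-Hochberg adjustment over all 19448 genes at an FDR of 0.10. The model and the filter rule were taken from the study's methods, but the genes that pass the filter can differ from the study's in number, and so can the adjustment over them. The intergenic percentage was computed as the share left after mRNA, intronic and ribosomal fractions, since its label is damaged, and batches were read from gaps in the title numbers. Training meant a recorded PavCA score. A single EPM distance, over 5000 cm, did not enter its model. Correlations used log2 CPM (prior count 2) and scipy 1.17.1. The models were tested on simulated counts. Symbols of pathway and marker genes came from the study's supplementary tables. The members, lists and tests were chosen with earlier results of these data known. Named were the 5 genes, the 3 genes most correlated with each, and the pathway and marker lists. A few genes that this rule names are not reported here. Total counts per library, 17.9 to 31.5 M, set the counting error.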

Additional observations from a re-analysis of the deposited data

How the results depend on the processing

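The alternatives changed normalization (DESeq2 size factors), the filter on low counts, the test (edgeR's quasi-likelihood and DESeq2's Wald test), the covariates and the rats. The shares of all genes called under these alternatives are not listed here, so their counts of the 5 genes have no background beside them. The slope with intergenic reads kept its direction and stayed called for all 5 genes under each of the 15 alternatives tried, and 0 of the 5 genes were called for any behavior or for side under any alternative. For ribosomal RNA 2 genes were called in batch 3 alone. Grin2b turned to 0.15 among males and was also not called with DESeq2 size factors (adjusted p = 0.13), with DESeq2 as a whole (0.36), with quasi-likelihood (0.22), or in batch 1 (0.12) or batch 3 (0.62) alone. For training, where 1 gene was called, 0 were called with DESeq2 size factors, dissection day added, the intergenic fraction left out, females only, date of death in place of sex, the 3 shared dates only, DESeq2's Wald test, males without the shared date (chosen after the data were seen) and without dissection day 14 (likewise), and 2 with all 250 libraries and among males. Of 19 alternatives Gria1 was called in 5, Grin2b in 4, Camk2a in 2 and Dlg4 in 1, so a count of 1 was not always Gria1: with family added, with intronic, UTR and concentration terms, among families with both kinds of rats, and without the males of the shared date it was Grin2b. With sex as the only covariate Gria1 turned to 0.15 and Dlg4 to 0.16, the latter called. For family 2 genes were called with intronic and UTR fractions and RNA concentration added. Of 10 alternatives Gria1 was not called in 4, Camk2a in 2 and Grin2b in 1 (sex as the only covariate, adjusted p = 0.39), and Grin1 was called in all 10. For sex 0 were called without a filter, with dissection day, with the intronic, UTR and concentration terms, without the intergenic fraction, where Grin1 turned to 0.041, or with sex alone. The median r as measured was 0.94 in batch 2 and 0.89 in batch 3, and after the covariates 0.70 in males, 0.53 in batch 2 and 0.70 in batch 3. The causes of these changes were not tested. No paired analysis was possible because replicate numbers only follow the order of the samples. The depth, the size of the untrained group (37 rats) and the overlap of training with dissection day limit the training estimates.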
